A study of Arabidopsis thaliana with 4 samples.

Results

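The transcripts described here are those of 5 cold-regulated genes of Arabidopsis thaliana, COR15A, COR15B, COR47, COR27 and LTI30, each read by 1 probe set of the ATH1 array that carries a single gene name. They are 5 of the 13513 single-gene probe sets and of the 22746 plant probe sets measured. They were picked by name with their smg7b and wild-type signals already known. The differences between genotypes are therefore given for these genes as a description, without a test, and support nothing further. Of the 5, 4 read lower in both smg7b arrays than in both wild-type arrays, from 9.22-fold lower for COR15A to 1.74-fold lower for COR47, and the 2 genotypes overlapped for COR27. Of the 13648 probe sets bright enough to be tested, 31.2% were likewise lower without overlap and 30.1% were higher.

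COR genes are named for the rise of their transcripts in the cold. In the best-known route, cold induces the CBF (DREB1) transcription factors, which bind a short element shared by many COR promoters, and abscisic acid and drought reach several of the same genes by other elements. The COR15 and dehydrin proteins are hydrophilic. COR15A and COR15B act in the chloroplast stroma, where they protect membranes during freezing, whereas dehydrins such as COR47 and LTI30 bind water, ions and membranes as cells lose water. COR27 is different in kind, since it encodes a regulator that acts with its relative COR28 in the circadian clock, light signalling and freezing tolerance.

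Each of 4 RNA samples came from whole plants of the Columbia-0 accession and was hybridised to its own array, 2 samples being wild type and 2 being the T-DNA insertion mutant smg7b (line SALK_050115, allele smg7b-1). The plants of both genotypes were 17 days past germination and had grown in pots of 5 inches at a constant 22 °C, 65% humidity and constant light. The labels mention no cold or drought treatment, so the signals below are those of plants kept warm. The mutant is a single insertion line, and no rescued line was analysed here. SMG7B is a factor of nonsense-mediated mRNA decay, a pathway that removes transcripts with early stop codons, and the series set out to find its target genes. Nothing in the labels says that the 2 samples of a genotype came from separate plants. The p-values thus reflect the spread of these samples alone, and it may be technical.

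Signals are in arbitrary units on a linear scale, scaled by the authors to the same trimmed mean on every array. The median plant probe set read 35.7 and 36.6 on the wild-type arrays and 40.4 and 38.0 on the mutant arrays. Background, taken as the brightest Bacillus control probe set, was between 6.42 and 9.21. The targeted gene SMG7L (AT1G28260) read 49.7 and 46.8 on the wild-type arrays and 16.7 and 14.4 on the mutant arrays. The ratio of the 3' to the 5' Actin control, a sign of RNA integrity, differed between arrays, being 2.22 and 8.62 on the wild-type arrays and 25.8 and 9.65 on the mutant arrays, with 25.8 on replicate 1 of the mutant. The GAPDH ratio ran the same way, 0.960 and 1.22 against 2.26 and 1.41. Of 13648 probe sets bright enough for limma, 20.3% had a Benjamini-Hochberg adjusted p under 0.05, and the number called (2771) ranged from 980 to 4325 when 1 array was left out.

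COR15A (AT2G42540, chromosome 2) read 216 and 232 on the wild-type arrays and 22.3 and 26.6 on the mutant arrays. The 2 groups were far apart, with every mutant signal far below every wild-type signal. The means were 224 ± 11.3 in wild type and 24.4 ± 3.05 in smg7b (SD, n = 2 each). The fold of 9.22 corresponds to a log2 difference of -3.20 (SE 0.22 from the limma fit). The 4 pairs of a mutant and a wild-type array gave differences between -3.38 and -3.03. The mutant signals were still above background, the lower of them 2.42 times that of its array. In whole plants, fewer cells with the transcript and less transcript in each cell cannot be told apart, for COR15A or for any gene below.

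COR15B (AT2G42530, chromosome 2) lies directly beside COR15A in the RefSeq gene order and encodes its close relative. It read 201 and 263 on the wild-type arrays and 50.3 and 60.7 on the mutant arrays. All 4 arrays kept the genotypes apart here too, and the wild-type replicates differed by 1.31-fold, more than those of COR15A at 1.07-fold. The means were 232 ± 43.7 and 55.5 ± 7.34 (SD, n = 2 each), a 4.17-fold difference and a log2 difference of -2.06 (SE 0.22). The log2 difference of COR15A was the larger in size by 1.15. Each of the 2 probe sets carries 1 gene name, but how far transcripts of one COR15 gene bind the probes of the other was not tested.

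**Figure D1:**
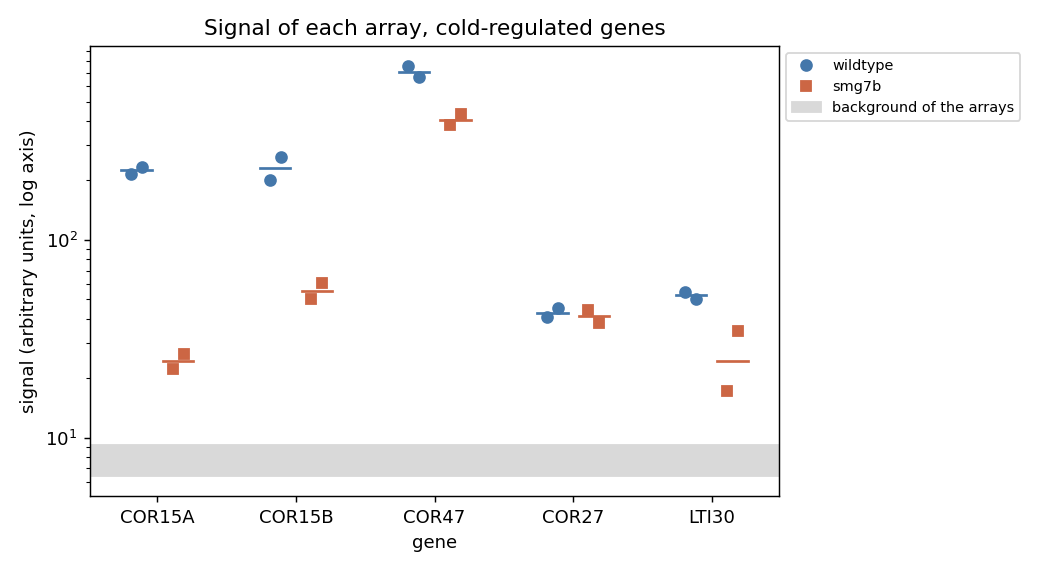
Signal of the 5 cold-regulated genes in arbitrary units on a log axis. Each circle is a wild-type array and each square an smg7b array (2 per genotype), the short line is the mean of the log2 values, and the grey band spans the array backgrounds (6.42 to 9.21). The genotypes are apart for COR15A, COR15B, COR47 and LTI30 and overlap for COR27, and the 2 smg7b squares of LTI30 (17.1 and 34.6) are the farthest apart of any pair.

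The dehydrin gene COR47 (AT1G20440, chromosome 1) showed a smaller difference than the COR15 pair. It read 753 and 663 on the wild-type arrays and 382 and 431 on the mutant arrays. Both mutant arrays lay below both wild-type arrays, and the replicates of each genotype lay close together, 1.14-fold apart in wild type and 1.13-fold in smg7b. The means were 708 ± 63.6 and 406 ± 34.3 (SD, n = 2 each), a 1.74-fold difference and a log2 difference of -0.80 (SE 0.20). Every signal was at least 41.5 times the background of its array.

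The dehydrin gene LTI30 (AT3G50970, also called XERO2, chromosome 3) read 54.4 and 50.5 on the wild-type arrays and 17.1 and 34.6 on the mutant arrays. The wild-type arrays lay close together, while the mutant arrays differed 2.02-fold from each other, a gap that only 0.799% of tested probe sets exceeded between the same 2 arrays. The groups did not overlap. The means were 52.4 ± 2.75 and 25.9 ± 12.3 (SD, n = 2 each), with a log2 difference of -1.11 (SE 0.34) and pairwise differences from -1.67 to -0.54. The lower of the mutant signals came from replicate 1, the array with the Actin ratio of 25.8, and was 1.86 times background. Without that array the log2 difference of LTI30 was -0.60, and without smg7b replicate 2 it was -1.61. With the log2 Actin ratio as a covariate it was -0.58 (SE 0.43, from a spread pooled over probe sets). The part of RNA integrity in the LTI30 difference was not tested beyond these values.

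COR27 (AT5G42900, chromosome 5), the clock and light regulator, read 40.7 and 45.3 on the wild-type arrays and 44.5 and 38.1 on the mutant arrays. The mutant signals lay on both sides of the lower wild-type signal, so the groups overlapped. The means were 43.0 ± 3.30 and 41.3 ± 4.47 (SD, n = 2 each). The log2 difference was -0.06 with a 95% interval from -0.63 to 0.51. All 4 signals were at least 4.83 times background, so the probe set was not too dim to read.

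Set side by side, the 5 genes spanned a wide range of differences between genotypes. Ranked among all 13648 tested probe sets from the largest log2 fall upward, COR15A stood at place 1, COR15B at 21, LTI30 at 400, COR47 at 1049 and COR27 at 6324. Their median log2 difference was -1.11, against -0.01 for all tested probe sets. Of the 5 genes, 4 were lower without overlap, as were 31.2% of all tested probe sets, and 0 were higher without overlap, as were 30.1%. Of the same 5, 3 were at least 2-fold lower, as were 4.10%. As the genes were chosen from this contrast, these counts describe them and are no evidence of a shared response. The replicates can also be compared. In wild type the gap between the 2 arrays was between 0.10 and 0.39 on the log2 scale for the 5 genes (median of all tested probe sets 0.27). In smg7b it was between 0.17 and 0.27 for COR15A, COR15B, COR47 and COR27 (median of all 0.21) and 1.01 for LTI30.

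**Figure D2:**
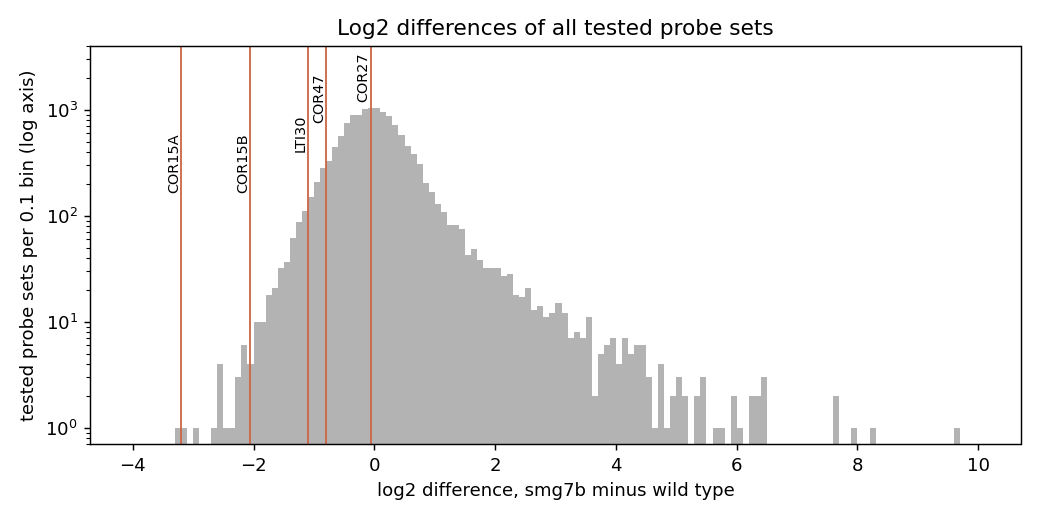
Histogram of the log2 difference (smg7b minus wild type) of the 13648 tested probe sets, counted per 0.1 on a log axis, with vertical lines at the 5 genes. COR15A (-3.20) sits at the lower end of the distribution, COR15B (-2.06) in its thin lower tail, LTI30 (-1.11) and COR47 (-0.80) on its lower flank and COR27 (-0.06) at its centre.

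The log2 differences were also read under settings that bear on RNA integrity and single arrays. The Actin ratio was higher on both mutant arrays than on both wild-type arrays. It thus cannot be cleanly separated from genotype, and the part of RNA integrity in these differences was not tested. With the Actin ratio as a covariate COR15A gave -3.15 (SE 0.33) and COR15B -2.18 (SE 0.30), whereas COR47 gave -0.61 (SE 0.28). The SEs of that fit come from a spread pooled over probe sets, not from each gene alone. With 1 array left out at a time, COR15A stayed between -3.33 and -3.08, COR15B between -2.25 and -1.87, and COR47 between -0.89 and -0.71. COR27 moved between -0.17 and 0.05 and changed sign. Centring each array on its median removes a shift of 0.12 between the genotypes, measured over all plant probe sets. The log2 differences relative to that shift were -3.32 for COR15A, -2.18 for COR15B, -1.22 for LTI30, -0.92 for COR47 and -0.18 for COR27. A constant of 32 added to every signal before the logarithm, which damps dim signals, reduced COR15A to -2.18, COR15B to -1.59 and LTI30 to -0.56 and left COR47 at -0.76.

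**Figure D3:**
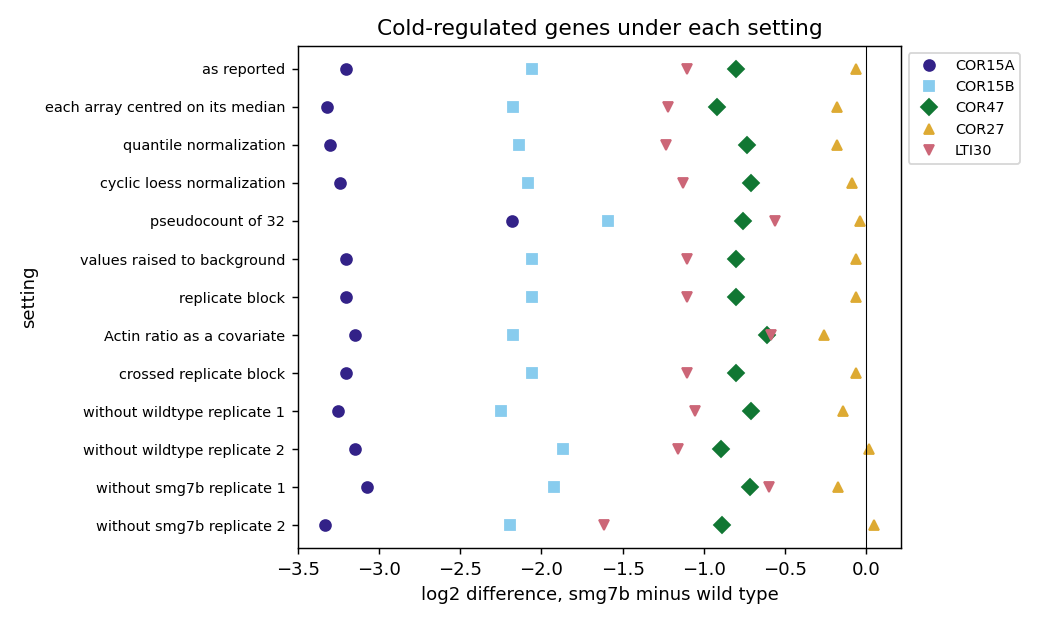
Log2 difference (smg7b minus wild type) of the 5 genes on the horizontal axis under each setting on the vertical axis, 1 symbol per gene. COR15A and COR15B stay left of the other genes under every setting drawn, LTI30 moves between -1.61 and -0.56, and COR27 lies within 0.26 of 0.

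The rest of the cold pathway could be read only in part. Of 107 other genes listed (cold regulators, cold-induced genes, dehydrins, other LEA proteins, abscisic acid response, clock and light), 10 had a single-gene probe set in the annotation used here. Of these, 4 were bright enough to be tested. None of the CBF genes was among the 10. The annotation left 8794 probe sets of the array unnamed and gave 503 several genes. The array may thus carry probe sets for the other listed genes that were not read here. In limma with Benjamini-Hochberg adjustment 1 of the 4 was higher, 0 were lower, and at an unadjusted p of 0.05 the counts were the same. Over all tested probe sets 11.3% were called higher and 9.00% lower, so counts over so few genes cannot be told from that share and say little about the pathway. The gene that rose was ZAT10 (AT1G27730), a zinc-finger repressor that cold, salt and wounding induce. ZAT10 read 19.4 and 30.3 on the wild-type arrays and 120 and 146 on the mutant arrays, a log2 rise of 2.45 (SE 0.27, adjusted p = 7.09e-05). Its direction was opposite to that of the COR15 genes, and its groups did not overlap.

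COR28 (AT4G33980), the relative of COR27, read 49.8 and 31.9 on the wild-type arrays and 26.7 and 34.2 on the mutant arrays, with overlapping groups and a log2 difference of -0.40 (SE 0.31, limma adjusted p = 0.405). The clock gene GI (AT1G22770), which encodes the protein GIGANTEA, read 176 and 174 against 211 and 166, a difference of 0.10 (SE 0.20, limma adjusted p = 0.777). Neither passed the threshold, and the 95% interval of COR28 ran from -1.08 to 0.28, so a fall of 2-fold is within it.

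Among the other dehydrins, 4 of 8 listed had a single-gene probe set. HIRD11 (AT1G54410), a small dehydrin, read 1857 and 3095 on the wild-type arrays and 2455 and 2206 on the mutant arrays. The groups overlapped and the log2 difference was -0.04 (SE 0.29, 95% interval -0.67 to 0.59, limma adjusted p = 0.935). It turned positive, by 0.06 and 0.15, under quantile and cyclic loess normalization. The probe sets of the dehydrin genes AT2G21490, AT4G38410 and AT4G39130 were too dim to be tested, each above background on at most 1 array, with signals from 0.644 to 9.23. The 3 measured genes of the other LEA proteins, LEA4-1, LEA18 and LEA4-5, read between 0.178 and 6.17 and were at or below background on every array. Their transcripts were not detectable in either genotype on these arrays.

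A search of the RefSeq names for words such as cold, dehydrin, drought or late embryogenesis, made after the data had been seen, added 7 genes with a single-gene probe set, 5 of them tested. Of these, 1 was higher and 0 were lower in limma, with the same counts at an unadjusted p of 0.05. Over all tested probe sets 11.3% were called higher and 9.00% lower, and 5 genes are too few to differ from that share. SRC2 (AT1G09070), named for a cold-regulated gene of soybean, read 493 and 397 on the wild-type arrays and 852 and 1164 on the mutant arrays. This was a log2 rise of 1.17 (SE 0.22, limma adjusted p = 0.00348), and it did not pass without smg7b replicate 2 (0.95, adjusted p = 0.0726). The drought-induced genes DI19 and DI21 gave log2 differences of -0.22 (SE 0.26) and 0.15 (SE 0.26), both with overlapping groups. The late embryogenesis genes AT2G44060 (LEA26) and AT2G46140 (LEA27) gave -0.20 (SE 0.21) and 0.61 (SE 0.29). OSM34, which encodes osmotin, read 0.652 and 0.520 in wild type, below background, and 18.1 and 22.7 in smg7b. The rise was at least 3.12-fold. Its probe set was too dim on average to be tested.

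**Figure D4:**
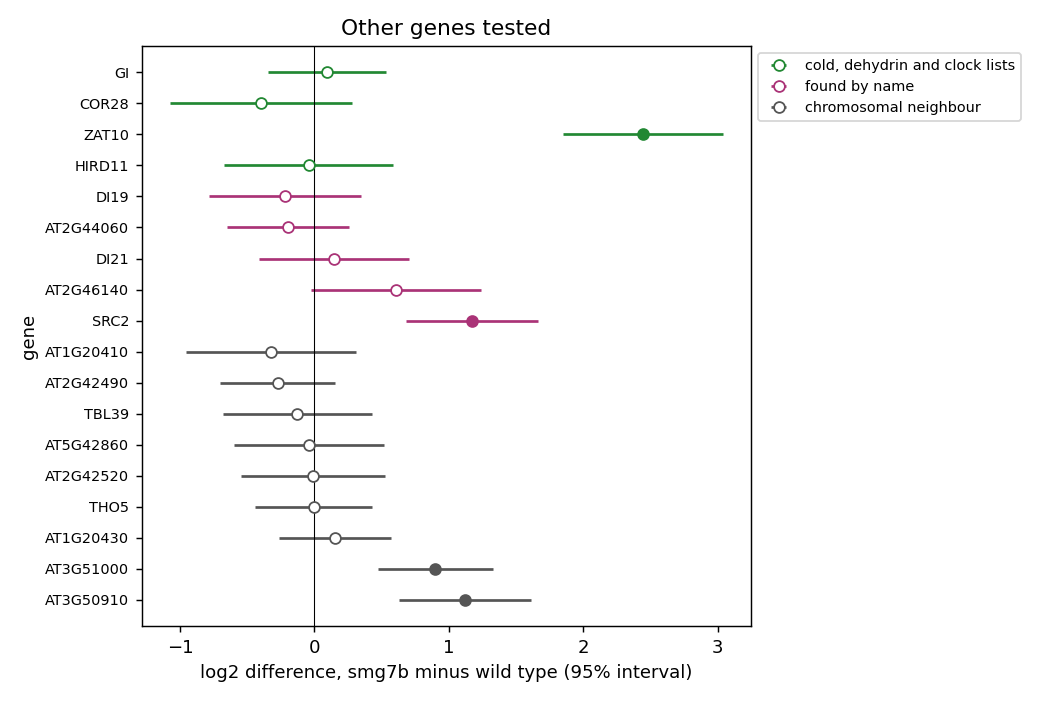
Log2 difference (smg7b minus wild type) with its 95% interval from limma for the tested genes of the cold, dehydrin and clock lists, the genes found by name and the chromosomal neighbours of the 5 genes. Filled circles passed an adjusted p of 0.05 and open circles did not. The filled ones, ZAT10 (2.45), SRC2 (1.17), AT3G50910 (1.12) and AT3G51000 (0.90), all lie on the higher side.

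The genes around the 5 on the chromosome were read next. The nearest genes with a single-gene probe set, 2 on each side of each gene, came to 16 beside the COR15 pair itself, of which 9 were tested, 2 higher and 0 lower in limma, with the same counts at an unadjusted p of 0.05. With 11.3% of all tested probe sets called higher and 9.00% lower, these counts do not set the neighbours apart. AT2G42520, directly before COR15B, read 129 and 81.9 on the wild-type arrays and 97.5 and 107 on the mutant arrays, a log2 difference of -0.01 (SE 0.25, adjusted p = 0.985 in limma). On the far side of the pair, TBL39 gave -0.13 (SE 0.25). AT1G20430, directly before COR47, gave 0.15 (SE 0.19), and THO5, a subunit of the THO complex near COR27, gave -0.01 (SE 0.20). The 2 that rose lie near LTI30, AT3G50910 being 8 genes before it and AT3G51000 3 genes after it. AT3G50910 gave 1.12 (SE 0.22, limma adjusted p = 0.00463) and AT3G51000 gave 0.90 (SE 0.20, limma adjusted p = 0.00779), both opposite in direction to LTI30. The call of AT3G51000 was lost without smg7b replicate 1 (adjusted p = 0.0796) and without smg7b replicate 2 (adjusted p = 0.0734). The dehydrin genes next to COR47 and LTI30, ERD10 and XERO1, have no single-gene probe set named here and were not analysed.

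The profiles of the 5 genes over the 4 arrays were compared with those of 7348 other tested single-gene probe sets, by the root mean square difference of log2 values centred on each gene's own mean. The centred values contain the genotype difference, so counts of like profiles partly restate the size of each fall. The profile of COR15A was the least common, with 0 probe sets within 0.25. Its nearest were AT4G25780 (0.27), with 71.0 and 70.8 on the wild-type arrays against 6.47 and 12.3 on the mutant arrays, AT5G62360 (0.37) and AT3G26960 (0.39). COR15B had 10 within 0.25 (0.136%). The nearest were IAA29 (0.06), a repressor of auxin response, with 55.1 and 73.2 against 14.3 and 15.6, EXLB1 (0.13), an expansin-like gene, and AT3G46490 (0.18).

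LTI30 had 105 probe sets within 0.25 (1.43%). The closest of these was AT2G20270 (0.04), which read 308 and 267 on the wild-type arrays and 95.01 and 185 on the mutant arrays, with a similar gap between the mutant arrays. Next came AT1G78110 (0.05) and AT3G15310 (0.09). COR47 had 1248 (17.0%), led by AT1G64380, AT4G38670 and AT3G01960 (0.02 each), and COR27 had 3162 (43.0%), led by AT3G17750 (0.00226), AT4G34265 (0.00842) and AT4G20030 (0.0105). The likeness is over 4 arrays only and says how common a profile was on them.

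The labelled tissue was checked against marker genes. Of 9 listed genes of green tissue, 3 had a single-gene probe set, and PRK, RCA and PSAE1 read between 1823 and 6834 on every array, their summed signal being 11751 and 16629 on the wild-type arrays and 12792 and 12035 on the mutant arrays. None of the 3 passed in limma, and 1, PRK, was lower at an unadjusted p of 0.05 (log2 difference -0.72, SE 0.25, adjusted p = 0.0680). PRK was called lower in limma once arrays were centred on their medians (-0.83, adjusted p = 0.0403) or quantile normalized (-0.68, adjusted p = 0.0223). It was also called lower when wild-type replicate 1 (-0.78, adjusted p = 9.95e-04) or replicate 2 (-0.66, adjusted p = 0.00494) was left out. RCA was lower in limma without wild-type replicate 1 (-0.56, adjusted p = 0.0233), and PSAE1 was higher without wild-type replicate 2 (0.66, adjusted p = 0.00304). The fits without a wild-type array give p-values that are too small. Of 7 root genes, 2 had a single-gene probe set, with summed signals of 346 and 365 on the wild-type arrays and 403 and 518 on the mutant arrays. Nearly all of this came from PYK10, whose log2 difference was 0.40 (SE 0.20, limma adjusted p = 0.193). EXPA7, a gene of root hairs, was above background on 1 array. The seed list had no single-gene probe set named here. The part of tissue proportions in the lower COR15A and COR15B signals was not tested.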

How the data were processed

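The deposited table holds a linear microarray intensity, called signal here, for each probe set on each array. The authors used MAS5 and GCOS, per the submitters' processing notes, in versions not given in the sources used here, and replicates were not pooled. From the values, the 2% trimmed mean was 100.01 on each array. Dim signals stay noisy after such scaling, and the number of arrays limits the precision.

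Signals were log2 transformed without a pseudocount. After removal of 64 control probe sets, 13648 of the other 22746 reached the 40th percentile of mean log2 (4.32) and entered the test. Genotype was fitted over all 4 arrays with limma 3.58.1 in R 4.3.3 (lmFit, eBayes with an intensity trend) and Benjamini-Hochberg adjustment over all tested probe sets, at a threshold of 0.05. SE and 95% intervals come from that fit. An exact permutation test of 2 against 2 arrays cannot go below p = 0.333. The analysis was tested on simulated data with independent normal noise of the spread that limma estimated. That test does not cover differences in RNA integrity between arrays.

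Background was the highest of 27 Bacillus control probe sets per array. Where both arrays of a genotype lay below it, the fold is "at least" the other genotype's mean log2 over the mean log2 of those backgrounds. Probe sets were named from the annotation table of the array platform (13513 with 1 gene, 503 with several, 8794 unnamed here) and RefSeq's gene table of assembly TAIR10.1, which held all 5 genes. It gave the gene order, and no coordinates are printed since no build is named.

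The 5 genes and the gene lists were chosen with earlier results of these data known, and the lists were recalled from general knowledge. The rule named all 5 genes, every listed gene with a tested single-gene probe set, 2 measured neighbours on each side of each gene, and the 3 closest profiles. Figures were drawn with matplotlib 3.10.9. Alternatives were other scaling, a pseudocount of 32, values raised to background, other filters and moderation, a replicate block, the Actin ratio as a covariate and each array left out.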

Additional observations from a re-analysis of the deposited data

How the results depend on the processing

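With 2 arrays per genotype, calls rest on a spread pooled over probe sets. The number of calls (2771) was 1709 with the Actin covariate and between 980 and 4325 with 1 array left out: 980 without smg7b replicate 1, 1546 without smg7b replicate 2 and 4325 without wild-type replicate 2. In the covariate fit and those without a wild-type array, the prior took over the spread of single probe sets, so the p-values are too small. The SEs of the covariate fit likewise do not show the spread of single genes. Where 1 array was left alone in a genotype, it was assumed to vary like the others. Calls were 55.7% higher, and 42.2% after median centring. Among listed pathway genes 1 call became 0 in limma at the 60th percentile filter, where ZAT10 was not tested and 0 of the 2 genes left had an unadjusted p under 0.05. It was 1 with any array left out. Calls among the genes found by name (1) were 2 without the filter, and 0 to 2 with 1 array left out.

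COR15A, COR15B, COR47 and LTI30 were lower under every alternative in which they were read, which for most alternatives was fixed in advance. Other filters, other moderation and a replicate block leave the estimate unchanged. Raising values to background does too, as all 5 genes exceed it on every array. Where the genotypes do not overlap, leaving out 1 array or adding a constant cannot turn the sign. Only other scaling and the Actin covariate could have turned it. The differences shrank to -2.18, -1.59 and -0.56 for COR15A, COR15B and LTI30 with the pseudocount of 32, which by construction damps dim signals. With the Actin covariate COR47, COR27 and LTI30 gave -0.61, -0.26 and -0.58. With 1 array left out the ranges were -3.33 to -3.08 for COR15A, -2.25 to -1.87 for COR15B, -0.89 to -0.71 for COR47, -0.17 to 0.05 for COR27 and -1.61 to -0.60 for LTI30.

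Same-numbered arrays share a replicate number, and whether they were handled together is not known. Their deviations correlated at -0.15, which on so few arrays cannot decide it. With a replicate block the log2 differences of the 5 genes were the same (COR15A -3.20) and 2488 probe sets were called. The crossed replicate block, added after seeing the data, called 3988.

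Of 361 values for 23 single genes under alternatives, 327 kept direction and call, 3 calls were lost, 7 were gained (PRK in 4 fits, and RCA, PSAE1 and DI19 in 1 each) and 24 turned sign, all among genes not called. GI gave -0.0210 after median centring, and HIRD11 0.0588 and 0.15 under quantile and cyclic loess normalization. With the Actin covariate GI gave -0.0483, COR28 0.16, DI19 0.20, AT2G44060 0.0652, DI21 -0.48, PSAE1 -0.37 and AT2G42520 0.46. With 1 array left out, values ran from -0.0760 to 0.27 for GI, -0.55 to 0.11 for DI19, -0.41 to 0.0157 for AT2G44060, -0.17 to 0.46 for DI21, -0.41 to 0.33 for HIRD11, -0.17 to 0.66 for PSAE1, -0.34 to 0.32 for AT2G42520, -0.17 to 0.0823 for AT5G42860 and -0.13 to 0.12 for THO5. The cause of these changes was not tested.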
